A study of Mus musculus with 24 samples.

Results

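Expression of 40 genes of sterol and fatty acid metabolism was examined in blood monocytes of mice treated on the skin with the TLR7 agonist imiquimod (IMQ). The mice did or did not carry a conditional deletion of *Notch2* in myeloid cells. The 40 genes were taken by symbol from a table of 53715 annotated genes, and each was present in it. They comprise 19 enzymes of cholesterol biosynthesis, 5 genes of sterol sensing, 5 genes of sterol transport, efflux and receptor turnover, and 11 genes of fatty acid synthesis, elongation and desaturation. RNA from sorted cells was sequenced in 24 libraries, 4 for each of 6 groups. All mice were on a C57BL/6 background, were 8 to 10 weeks old, and received Sham cream or 50 mg a day of Aldara cream, which contains 5% IMQ, on depilated skin for 4 to 5 days before blood was taken on day 5. *N2ΔMy* mice carried *Lyz2* Cre, *Notch2* lox/lox and a *Cx3cr1* gfp reporter, and wt mice were control animals whose cells were likewise sorted as GFP+. *Lyz2* Cre is active in monocytes, macrophages and neutrophils, so that the deletion was not limited to the sorted cells. The 6 groups were wt and *N2ΔMy* Ly6Chi monocytes after Sham, wt and *N2ΔMy* Ly6Chi monocytes after IMQ, and wt and *N2ΔMy* Ly6Clo monocytes after IMQ. The libraries include no Ly6Clo monocytes after Sham, which the paper ascribes to their low number at the steady state. An effect of IMQ in Ly6Clo cells was therefore not tested. The control animals are called Sham in the sample labels and untreated in the methods of RNA isolation, and the labels do not say whether a library came from 1 mouse or several.

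Cholesterol is built from acetyl-CoA through mevalonate, squalene and lanosterol, and fatty acids are built from the same precursor, then elongated and desaturated. In most cells both routes are driven by the SREBP transcription factors, which leave the endoplasmic reticulum with the carrier SCAP when membrane sterol is low and are held there by INSIG proteins when it is high. Excess cholesterol activates the liver X receptors, which raise the exporters ABCA1 and ABCG1, apolipoprotein E and the ubiquitin ligase MYLIP, and monocytes and macrophages use these genes to balance uptake of lipoproteins and debris.

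The values are normalized counts, that is, reads per gene divided by a factor for each library and rounded by the authors to whole numbers. A gene was tested where it reached 50 in at least 1 library, which held for 11230 genes and for 36 of the 40 listed here. *Hsd17b7*, a sterol reductase (1 to 44 normalized counts), the desaturases *Scd1* (0 to 30) and *Fads2* (0 to 11), and malic enzyme *Me1* (0 to 2) stayed below this level and are given by value only. Differences were tested with limma on log2(value + 1), and a gene was called where its adjusted p was at most 0.05 and its log2 fold change at least 0.6 in size. On this scale fold changes of low genes are understated. Levels are means ± SD with n = 4 libraries, and p-values measure the spread between these libraries. In bulk RNA of sorted cells, fewer cells of a type and less RNA per cell cannot be told apart.

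The library totals of normalized counts ran from 13273508 to 14651770, and 9321 to 9691 genes reached 50. These totals are scaled, and the steps of the rounded low values did not give the number of reads per library reliably, so read depth is treated as unknown. *Notch2* was lower in *N2ΔMy* cells of each kind, at 10750 ± 950 against 17770 ± 1800 in Ly6Clo cells, 7616 ± 491 against 13910 ± 955 in Ly6Chi cells after IMQ and 9298 ± 669 against 15210 ± 1140 after Sham, without overlap of libraries. The gene total also counts exons outside the deleted part, so it does not measure the loss of the protein. The paper reports partial targeting in Ly6Chi monocytes, seen by flow cytometry and in the transcriptome. After IMQ it found Notch2 in Ly6Clo cells reduced to the level of Ly6Chi cells. All 5 Ly6Chi markers were lower and 7 of 7 tested Ly6Clo markers higher in Ly6Clo cells of both genotypes. These lists include *Ly6c2* and *Spn*, genes of the sorting antigens Ly6C and CD43, so part of this follows from the sort. The Ly6Chi markers summed to 7117 to 10009 in *N2ΔMy* and to 524 to 1892 in wt Ly6Clo libraries. The T and NK cell list of 7 genes summed to 0 to 22 normalized counts over all libraries, with the T cell genes *Cd3e*, *Cd3g* and *Trbc2* at 0 in each group. The B cell list summed to 807 to 3872, and the erythroid list to 0 to 1547 with group medians of 11 to 172. The library numbers in the labels form 2 series, replicates 1 and 2 in the first and replicates 3 and 4 in the second, and each group has 2 libraries in each. What the series stand for is not given in the sources used here, and differences within each are given beside the pooled ones as first and second series. Each called difference of these genes had the same sign in both.

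Per kilobase of gene model, *Apoe* had the highest level of the 40 genes in each of the 6 groups, from 2330 normalized counts per kb in wt Ly6Clo cells to 14200 in *N2ΔMy* Ly6Chi cells after Sham. *Acly*, which makes cytosolic acetyl-CoA from citrate, followed in the Ly6Chi groups with 574 to 802 per kb over all groups. The exporter *Abcg1* (343 to 762), the elongase *Elovl5* (302 to 756) and the transcription factor *Srebf2* (264 to 422) came next. The fatty acid synthase gene *Fasn* lay at 49.6 to 89.6 per kb, and among the cholesterol enzymes group means ran from 1.62 for *Hsd17b7* to 272 for *Ebp*, the sterol isomerase. *Fads1*, the desaturase that completes arachidonic acid, was low at 4.41 to 23.9 per kb. Across the 6 groups 18 of the 36 tested genes (50%) passed an F-test at adjusted p of at most 0.01, against 43% of all genes tested. The 18 were 4 of 18 cholesterol enzymes (*Mvk*, *Mvd*, *Cyp51* and *Sc5d*), 3 of 5 sensing genes (*Insig1*, *Srebf1* and *Srebf2*), 4 of 5 transport genes (*Mylip*, *Apoe*, *Abca1* and *Abcg1*) and 7 of 8 fatty acid genes (*Acly*, *Acaca*, *Fasn*, *Scd2*, *Elovl5*, *Fads1* and *Acss2*).

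**Figure D1:**
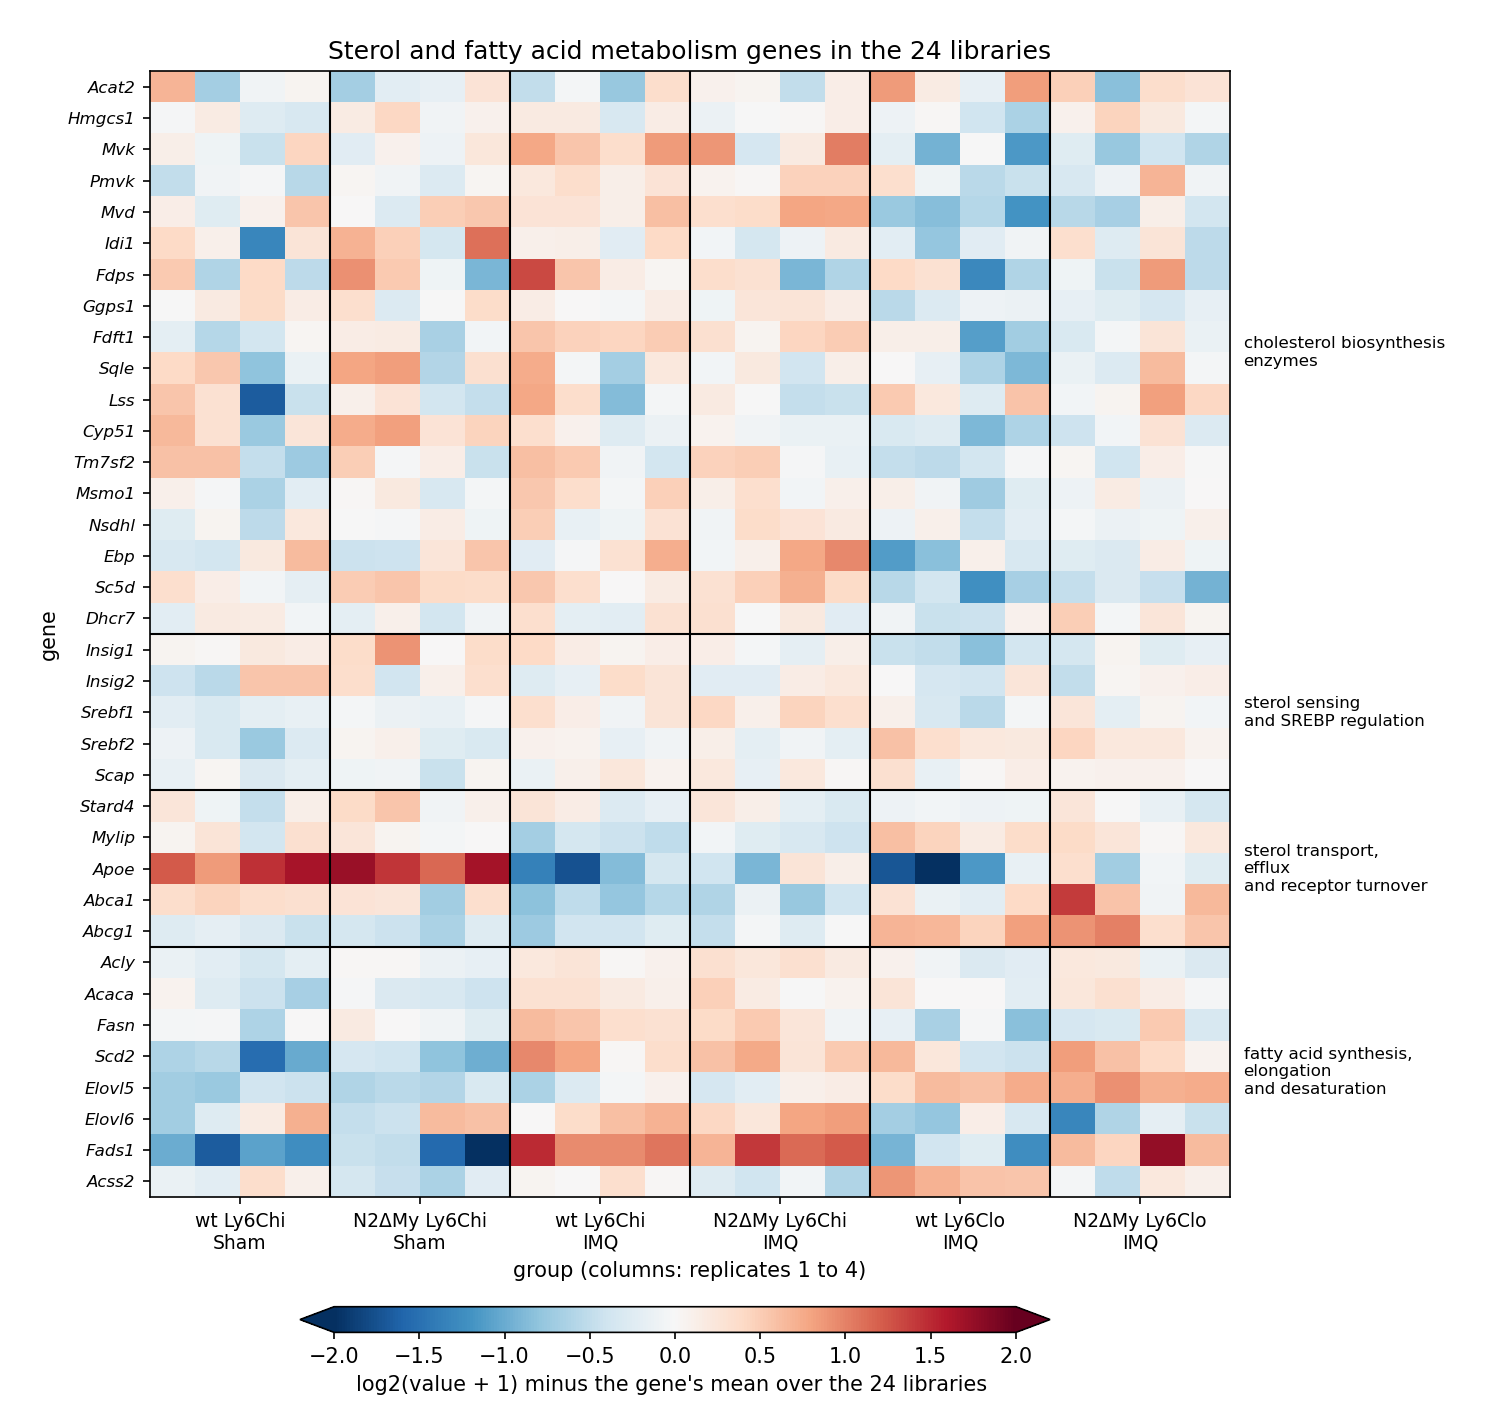
Level of each tested gene (rows, grouped by role) in each of the 24 libraries (columns, grouped by genotype, subset and treatment), as log2(value + 1) minus the gene's mean over all libraries; red is above and blue below that mean. *Apoe* is high in the 8 Sham libraries, *Fads1* and *Scd2* are low there, and *Abcg1* and *Elovl5* are high in the 8 Ly6Clo libraries.

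The first question was which of these genes differed in Ly6Chi monocytes after IMQ. In wt cells 3 genes of fatty acid synthesis and desaturation rose, and 2 genes of sterol efflux fell. *Fads1* was 5.13-fold and *Scd2* 2.74-fold higher than after Sham, *Apoe* was 5.2-fold lower and *Abca1* 2.05-fold lower. In total 6 of 36 genes (16.7%) were called, 4 higher and 2 lower, against 9.49% of all genes tested (4.43% higher and 5.07% lower). The median log2 fold change of the 36 genes was 0.21, against 0.01 over all genes tested, and 29 of the 36 differences were positive.

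Among the fatty acid genes, *Fads1* stood at 18, 11, 17 and 15 normalized counts in the wt Sham libraries and at 106, 72, 72 and 79 after IMQ. Each IMQ library was above each Sham library. The log2 fold change was 2.36 (SE 0.28, adjusted p = 0.000421), with 2.55 in the first series and 2.17 in the second. *Scd2*, a stearoyl-CoA desaturase that introduces the double bond of oleic acid, was at 556, 583, 296 and 426 after Sham and at 1672, 1474, 868 and 1089 after IMQ. Again the groups did not overlap, and in both of them the libraries of the second series were the lower ones. Its log2 fold change was 1.46 (SE 0.24, adjusted p = 0.00265), 1.46 and 1.45 within the 2 series. *Fasn*, which assembles palmitate, was at 689, 700, 461 and 712 after Sham and at 1105, 1045, 892 and 880 after IMQ. The lowest IMQ library was above the highest Sham library, and Sham replicate 3 was well below the other Sham libraries. The rise of 0.63 on the log2 scale (SE 0.15, adjusted p = 0.0166) lay close to the fold limit and fell to 0.48 without Sham replicate 3, to 0.57 without IMQ replicate 1 and to 0.60 without IMQ replicate 2, where it was no longer called. *Acly* (log2 fold change 0.37, adjusted p = 0.0116) and the acetyl-CoA carboxylase gene *Acaca* (0.54, adjusted p = 0.0323) passed the p limit and not the fold limit. The summed normalized counts of the 11 fatty acid genes were 5524 to 6193 after Sham and 7967 to 9111 after IMQ.

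Of 18 tested cholesterol enzymes 1 was called in wt cells. *Fdft1*, which joins farnesyl units to squalene at the entry to sterol synthesis, was at 239, 184, 213 and 283 after Sham and at 403, 380, 370 and 389 after IMQ. The IMQ libraries lay close together and above each Sham library. The log2 fold change was 0.76 (SE 0.14, adjusted p = 0.00508), 0.90 and 0.63 within the series. The exons of *Fdft1* overlap those of *Ctsb* on the opposite strand over 18.3% of the gene model, *Ctsb* averaged 14700 normalized counts against 286 for *Fdft1*, and whether reads were counted by strand is not given in the sources used here. *Mvk*, mevalonate kinase, was at 72.0 ± 18.5 after Sham and 110.2 ± 16.9 after IMQ, a log2 fold change of 0.63 with an adjusted p of 0.0976, which became 0.0419 once replicate number entered the fit as a blocking term (the replicate block). The median log2 fold change of the 18 enzymes was 0.20, and 15 of the 18 were positive. None of the 5 sensing genes was called, and *Srebf1* (0.38, adjusted p = 0.0279), which drives lipogenic genes, missed the fold limit.

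Of the 5 transport genes, *Apoe*, the apolipoprotein that carries cholesterol out of macrophages, was at 24922, 19299, 29443 and 33613 in the wt Sham libraries and at 4180, 3190, 5859 and 8323 after IMQ. The highest IMQ library was below the lowest Sham library. The log2 fold change was -2.38 (SE 0.27, adjusted p = 0.000326), -2.59 and -2.17 within the series. *Abca1*, which hands cholesterol to apolipoproteins, was at 370, 398, 373 and 364 after Sham and at 165, 205, 170 and 196 after IMQ. Both sets were tight and did not overlap, with a log2 fold change of -1.03 (SE 0.12, adjusted p = 0.000421), -1.06 and -1.01 within the series. *Abcg1*, the exporter to lipoprotein particles, was at 1526 ± 115 and 1395 ± 193 and was not called (-0.14, SE 0.11, adjusted p = 0.464). *Mylip*, whose product removes lipoprotein receptors, was at 509.2 ± 103 and 340.5 ± 31.9 and missed the fold limit (-0.56, adjusted p = 0.0356).

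In *N2ΔMy* Ly6Chi cells 4 of 36 genes (11.1%) were called after IMQ, 2 higher and 2 lower, against 8.7% of all genes tested (4.15% higher and 4.55% lower). *Fads1* was at 27, 26, 12 and 8 after Sham and at 60, 100, 82 and 88 after IMQ. The groups did not overlap, and the Sham libraries of the second series were lower than those of the first. Its log2 fold change was 2.25 (SE 0.40, adjusted p = 0.00478), 1.51 in the first series and 2.99 in the second. *Scd2* was at 679, 647, 489 and 434 after Sham and at 1282, 1438, 1022 and 1226 after IMQ. Without overlap, it was 2.23-fold higher (log2 fold change 1.16, SE 0.16, adjusted p = 0.00119; 1.03 and 1.28 within the series). *Apoe* was at 35214, 28890, 23759 and 33816 after Sham and at 8113, 5645, 12730 and 11554 after IMQ. It was 3.32-fold lower with no shared range (log2 fold change -1.73, SE 0.24, adjusted p = 0.00118), and -2.24 and -1.22 within the series. *Cyp51*, the lanosterol demethylase, was at 460, 488, 332 and 377 after Sham and at 289, 263, 252 and 250 after IMQ. Each IMQ library was below each Sham library, with a log2 fold change of -0.64 (SE 0.14, adjusted p = 0.0149; -0.78 and -0.49 within the series). This call was lost without Sham replicate 1 (-0.58) or replicate 2 (-0.55), and the exons of *Cyp51* overlap those of *Akap9* on the opposite strand over 3.76% of the gene model. *Abca1*, at 311.5 ± 88.3 and 213.5 ± 42.1, was not called (-0.51, SE 0.24, adjusted p = 0.212), and *Fdft1*, at 263.2 ± 62.7 and 347.8 ± 46.0, was not called either (0.43, adjusted p = 0.193).

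**Figure D2:**
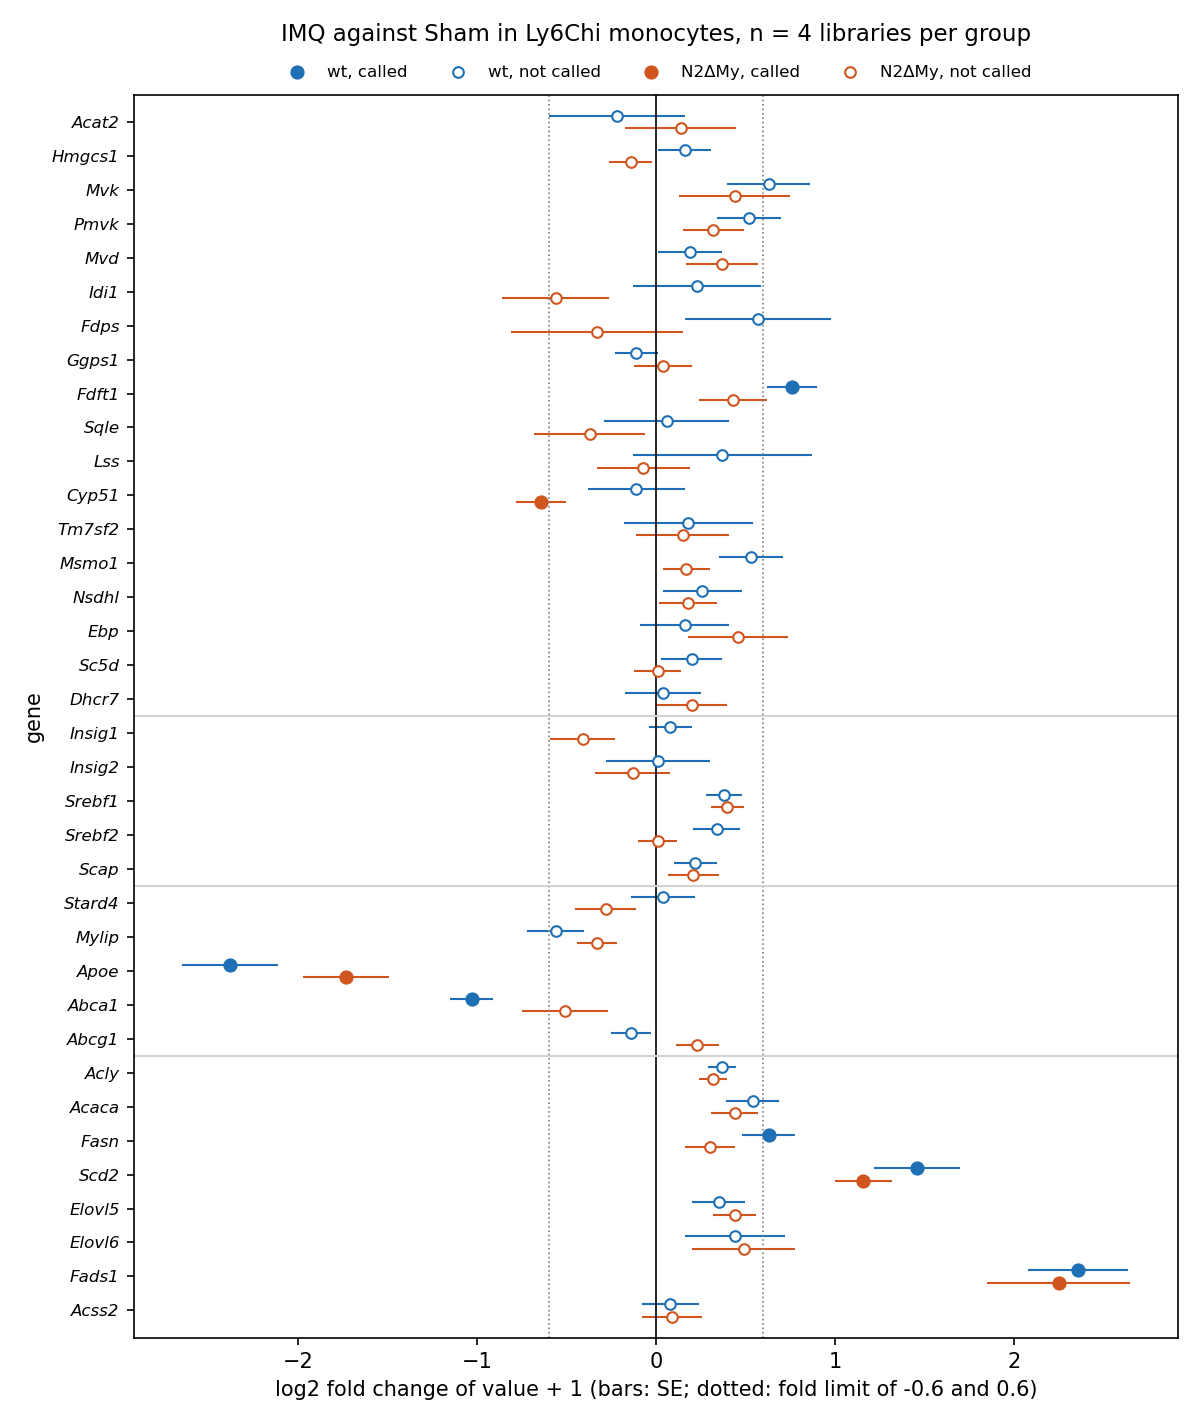
Log2 fold change (IMQ minus Sham, x axis) of each tested gene in wt and *N2ΔMy* Ly6Chi cells, with SE bars and filled symbols for called genes; the lines at 0.6 on either side of 0 are the fold limit. *Fads1* (2.36 and 2.25) and *Scd2* (1.46 and 1.16) lie on the right and *Apoe* (-2.38 and -1.73) on the left in both genotypes, while *Abca1*, *Fasn* and *Fdft1* are called in wt cells and *Cyp51* in *N2ΔMy* cells.

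A call in 1 genotype and not in the other does not show a difference between them. The interaction of genotype and treatment called 0 of 36 genes in limma and 0 of all 11230 genes tested (0%). It had an unadjusted p under 0.05 for 2 of the 36 genes and for 177 of all genes tested. It was -0.11 for *Fads1* and 0.65 (SE 0.40, adjusted p = 1) for *Apoe*. Other genes of lipid handling also differed after IMQ, where 9.49% of all genes tested were called in wt and 8.7% in *N2ΔMy* cells. Of 12 tested genes of other sterol synthesis and uptake, 2 fell in wt cells, the scavenger receptors *Cd36* (log2 fold change -1.24) and *Msr1* (-1.17), and *Msr1* fell in *N2ΔMy* cells (-0.83). Of 9 tested oxysterol and nuclear receptor genes, *Nr1h3*, which encodes a liver X receptor, rose in wt cells (1.01), the phospholipid acyltransferase *Lpcat3* rose in both genotypes (0.77 and 0.80) and the sterol hydroxylase *Cyp27a1* fell in both (-1.24 and -1.22). Of 15 tested genes of fatty acid activation and storage, the triglyceride enzyme *Dgat2* rose (1.48 in wt and 1.56 in *N2ΔMy* cells) and lipoprotein lipase *Lpl* fell (-1.55 and -1.13) in both, while in *N2ΔMy* cells the phosphatase *Lpin1* fell (-1.59) and 1 more gene rose. Of 13 beta-oxidation genes, *Acadl* rose in wt cells (0.68) and none was called in *N2ΔMy* cells. The calls of *Cd36*, *Nr1h3* and *Lpcat3* in wt cells were each lost in 6 of the 8 fits that left out 1 library.

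Markers of other cells and states moved with IMQ as well, beside the 9.49% of all genes tested called in wt and 8.7% in *N2ΔMy* cells. The summed normalized counts of the neutrophil list were 9 to 20 in wt Sham libraries and 1230 to 4969 in wt IMQ libraries. In *N2ΔMy* libraries they were 5 to 65 and 969 to 5255. Of the 10 genes of this list 3 were tested, and *S100a8* and *S100a9* were called higher in both genotypes. The sort excluded cells that stained for the neutrophil antigen Ly6G, and *Ly6g* was at 0 in all Ly6Chi libraries after IMQ. The macrophage list summed to 2986 to 3833 after Sham and 860 to 1625 after IMQ in wt cells, and to 3444 to 4303 and 1515 to 2720 in *N2ΔMy* cells. Of its 7 tested genes *Siglec1* was called lower in both genotypes (log2 fold change -3.56 and -3.62) and *Mertk* higher in *N2ΔMy* cells. In each genotype 5 of the 7 differences were positive, against the direction of the sum, with a median log2 fold change of 0.58 in wt and 0.77 in *N2ΔMy* cells. Of 4 tested dendritic cell genes *Flt3* and *Clec9a* were lower in both genotypes, and the list summed to 531 to 841 after Sham and 267 to 487 after IMQ in wt cells, and to 589 to 1010 and 295 to 408 in *N2ΔMy* cells. Of 3 tested platelet genes *Ppbp* was higher in *N2ΔMy* cells and none was called in wt cells, and the list summed to 21 to 85 after Sham and 49 to 138 after IMQ in wt cells, and to 27 to 53 and 71 to 123 in *N2ΔMy* cells. Of the 7 tested Ly6Clo markers *Spn* and *Cd300e* were higher in wt cells and *Cd300e* in *N2ΔMy* cells, with sums of 31789 to 35027 and 32212 to 48689 in wt cells and 21609 to 27055 and 22596 to 33336 in *N2ΔMy* cells. Of the 5 Ly6Chi markers *Vcan* was higher in both genotypes, and the other 4 had negative differences that were not called, with a median of the 5 of -0.34 in wt and -0.14 in *N2ΔMy* cells. In wt cells 2 of these passed the p limit alone, as did 1 in *N2ΔMy* cells. Of 13 tested cell cycle genes 9 rose in each genotype, and the list summed to 1632 to 1933 in wt Sham and 3469 to 5175 in wt IMQ libraries. Of 4 markers of both subsets 1 was lower in wt cells, and 1 was higher and 1 lower in *N2ΔMy* cells. The B cell list summed to 2051 to 3225 after Sham and 1279 to 2525 after IMQ in wt cells, and to 2149 to 3872 and 1222 to 2764 in *N2ΔMy* cells. Of its 2 tested genes none was called, and with the replicate block 1 was in each genotype. The part of these shifts in the lipid gene differences was not tested.

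The second question was how Ly6Clo monocytes differed from Ly6Chi monocytes under IMQ. In wt mice most genes of cholesterol synthesis were at lower values in Ly6Clo cells and 4 of the 18 were called lower, while *Abcg1*, *Abca1* and *Mylip* of the transport group were higher. In all, 12 of 36 genes (33.3%) were called, 4 higher and 8 lower, against 24.6% of all genes tested (11.9% higher and 12.7% lower). The median log2 fold change was -0.34 over the 36 genes, against -0.01 over all genes tested, and -0.50 over the 18 cholesterol enzymes, of which 16 were negative. The 19 cholesterol enzymes summed to 3483 to 4504 normalized counts in wt Ly6Chi and 2569 to 3052 in wt Ly6Clo libraries.

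Of the 8 genes that were lower in wt Ly6Clo cells, 6 have a promoter window in the RefSeq table for GRCm38.p6 (*Mvk*, *Mvd*, *Sc5d*, *Fasn*, *Insig1* and *Elovl6*), out of 32 of the 40 genes with 43 windows. Windows of the 250 bases before the start site were searched on both strands for the sterol regulatory element TCACNCCAC, the CCAAT box, a direct repeat site of the liver X receptors (DR4) and the E-box CACGTG. The CCAAT box, a site of the factor NF-Y that works beside the SREBPs at many sterol genes, was in 5 of the 6 windows (83.3%), in 25 of the 43 windows of the 40 genes (58.1%) and in 33.8% of all 32851 windows. CACGTG was in 2 of the 6, in 7 of the 43 (16.3%) and in 6.02% of all windows. TCACNCCAC was in none of the 6, in 1 of the 43 and in 1.05% of all windows, and the DR4 site was in none of the 43 and in 0.0152% of all. Of the 4 genes that were higher in wt Ly6Clo cells 3 have a window, and CCAAT and CACGTG were each in 2 of these 3 (66.7%). The *Elovl6* window held none of the 4 motifs. The upstream sequences of the other 5, without protein-coding exons, are shown because they carry these matches, with CCAAT in either orientation and CACGTG in capitals. They lie at chr5:114444061-114444268 (plus strand) for *Mvk*, chr8:122443423-122443672 (minus) for *Mvd*, chr9:42264301-42264550 (minus) for *Sc5d*, chr11:120824548-120824797 (minus) for *Fasn* and chr5:28071162-28071362 (plus) for *Insig1*.
Mvk: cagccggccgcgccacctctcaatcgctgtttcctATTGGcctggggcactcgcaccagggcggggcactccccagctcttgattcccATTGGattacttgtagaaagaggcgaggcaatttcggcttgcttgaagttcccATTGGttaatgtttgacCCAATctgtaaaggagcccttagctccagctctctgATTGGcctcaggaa
Mvd: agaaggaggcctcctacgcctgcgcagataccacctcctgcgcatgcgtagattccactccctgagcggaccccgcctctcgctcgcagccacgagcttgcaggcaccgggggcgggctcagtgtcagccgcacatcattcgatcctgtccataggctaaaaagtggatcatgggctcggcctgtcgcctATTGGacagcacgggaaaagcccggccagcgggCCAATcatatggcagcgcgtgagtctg
Sc5d: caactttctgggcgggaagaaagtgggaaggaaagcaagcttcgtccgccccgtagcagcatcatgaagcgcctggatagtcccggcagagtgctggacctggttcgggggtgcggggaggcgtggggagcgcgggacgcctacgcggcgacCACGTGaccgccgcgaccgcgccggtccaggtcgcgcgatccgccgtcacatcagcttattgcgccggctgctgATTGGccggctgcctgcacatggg
Fasn: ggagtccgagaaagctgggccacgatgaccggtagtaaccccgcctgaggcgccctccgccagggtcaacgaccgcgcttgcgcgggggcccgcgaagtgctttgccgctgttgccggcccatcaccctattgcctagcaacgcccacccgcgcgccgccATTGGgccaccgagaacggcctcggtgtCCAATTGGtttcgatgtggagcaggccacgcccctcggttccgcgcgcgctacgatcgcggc
Insig1: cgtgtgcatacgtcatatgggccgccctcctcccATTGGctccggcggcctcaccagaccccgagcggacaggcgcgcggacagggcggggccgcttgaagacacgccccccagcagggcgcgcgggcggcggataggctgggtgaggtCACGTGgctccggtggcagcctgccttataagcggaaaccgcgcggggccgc
The *Mvk* sequence held 5 CCAAT matches, 1 of them on the gene's own strand, *Mvd* held 2, and *Sc5d* held 1 and, further from the start site, an E-box. In *Fasn* 2 of the 3 matches overlap each other on opposite strands. A match is a description of the letters only.

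*Mvk* and *Mvd*, the kinase and the decarboxylase of the mevalonate steps, had the largest differences among the 18 tested sterol enzymes. *Hsd17b7*, which was too low to be tested, was at 18, 27, 16 and 19 normalized counts in wt Ly6Chi and at 11, 14, 1 and 7 in wt Ly6Clo libraries. *Mvk* was at 121, 103, 90 and 127 normalized counts in wt Ly6Chi and at 61, 36, 70 and 31 in wt Ly6Clo libraries. Its groups did not overlap, and it was 2.31-fold lower (log2 fold change -1.21, SE 0.29, adjusted p = 0.00788; -1.23 and -1.18 within the series). *Mvd* was at 313, 313, 279 and 393 in Ly6Chi and at 154, 142, 173 and 112 in Ly6Clo libraries. No Ly6Clo library reached the Ly6Chi range, and the log2 fold change was -1.16 (SE 0.17, adjusted p = 0.0004; -1.08 and -1.24 within the series). *Sc5d*, the desaturase of a late sterol intermediate, was at 248, 216, 172 and 192 in Ly6Chi and at 116, 132, 72 and 107 in Ly6Clo libraries. It was 1.96-fold lower without overlap (log2 fold change -0.97, SE 0.21, adjusted p = 0.00472; -0.90 and -1.04 within the series). *Fdft1* was lower as well, at 223.5 ± 88.2 against 385.5 ± 14.0 (log2 fold change -0.88, SE 0.25, adjusted p = 0.0197), but the difference was -0.39 in the first series and -1.36 in the second, and the call was lost without Ly6Clo replicate 4 (-0.77, adjusted p = 0.0546). *Ebp*, at 318.5 in Ly6Clo and 522.0 in Ly6Chi cells on average, was not called at an adjusted p of 0.0557, which was 0.000405 with the replicate block. *Cyp51* and the methyl oxidase *Msmo1* passed the p limit with log2 fold changes of -0.53 and -0.55.

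In the sensing group, *Insig1*, which retains SREBP in the endoplasmic reticulum, was at 314.8 ± 33.7 in wt Ly6Chi and 192.0 ± 26.4 in wt Ly6Clo cells (log2 fold change -0.72, SE 0.15, adjusted p = 0.00338; -0.74 and -0.69 within the series). *Srebf2*, the factor for sterol genes, was at 2372 ± 187 in Ly6Chi and averaged 3033 in Ly6Clo cells, a log2 fold change of 0.35 that passed the p limit alone (adjusted p = 0.0253).

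Of the 5 transport genes 3 were higher in wt Ly6Clo cells. *Abcg1* was at 1127, 1434, 1431 and 1588 in wt Ly6Chi and at 2985, 2960, 2553 and 3295 in wt Ly6Clo libraries. The libraries were well separated, with a 2.12-fold higher level (log2 fold change 1.08, SE 0.12, adjusted p = 5.25e-05; 1.22 and 0.94 within the series). *Mylip* was at 298, 373, 354 and 337 in Ly6Chi and at 724, 648, 534 and 618 in Ly6Clo libraries. Its lowest Ly6Clo library was above its highest Ly6Chi library, and the log2 fold change was 0.88 (SE 0.13, adjusted p = 0.000298; 1.04 and 0.73 within the series). *Abca1* was at 184.0 ± 19.5 in Ly6Chi and 314.5 ± 66.3 in Ly6Clo cells (log2 fold change 0.75, SE 0.17, adjusted p = 0.0058; 0.74 and 0.76 within the series). *Apoe*, at 5388 ± 2250 and 4986 ± 3290, and the intracellular cholesterol carrier *Stard4*, at 428.8 ± 75.8 and 401.5 ± 6.56, were not called.

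Fatty acid genes moved both ways. *Fads1* was at 106, 72, 72 and 79 in wt Ly6Chi and at 19, 28, 31 and 15 in wt Ly6Clo libraries. All Ly6Clo values were far below the Ly6Chi values, a 3.52-fold difference (log2 fold change -1.82, SE 0.31, adjusted p = 0.000902; -1.88 and -1.76 within the series). *Fasn* was lower at 543.5 ± 143 against 980.5 ± 112 (log2 fold change -0.88, SE 0.18, adjusted p = 0.00274; -1.01 and -0.75 within the series). *Elovl6*, which extends palmitate, was lower at 123.8 ± 37.4 against 216.8 ± 44.2 (log2 fold change -0.83, SE 0.23, adjusted p = 0.0182; -0.91 and -0.74 within the series), but its groups overlapped (exact permutation p = 0.0571), and the call was lost without Ly6Chi replicate 3 or 4 or Ly6Clo replicate 1 or 2, with log2 fold changes of -0.76, -0.73, -0.73 and -0.70. *Elovl5*, which extends polyunsaturated fatty acids, was higher at 2354 ± 250 against 1368 ± 282 (log2 fold change 0.80, SE 0.15, adjusted p = 0.00177; 0.95 and 0.65 within the series). *Acss2*, which makes acetyl-CoA from acetate, passed the p limit at 0.56. With replicates 3 and 4 alone the wt calls of *Mvk*, *Sc5d*, *Insig1*, *Abca1*, *Fasn* and *Elovl6* between subsets were lost. Those of *Fdft1* and *Elovl6* were lost without the filter on low values, and that of *Fdft1* with replicates 1 and 2 alone.

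In *N2ΔMy* mice 6 of 36 genes (16.7%) were called between Ly6Clo and Ly6Chi cells, 3 in each direction, against 17.4% of all genes tested (9.01% higher and 8.38% lower). *Sc5d* was at 211, 237, 281 and 222 in Ly6Chi and at 122, 139, 123 and 88 in Ly6Clo libraries. *Mvd* was at 326, 331, 446 and 440 in Ly6Chi and at 176, 162, 278 and 200 in Ly6Clo libraries. Both were lower without overlap, *Sc5d* by a log2 fold change of -1.02 (SE 0.18, adjusted p = 0.00212; -0.78 and -1.26 within the series) and *Mvd* by -0.93 (SE 0.19, adjusted p = 0.00482; -0.96 and -0.91). *Elovl6* was at 214, 187, 277 and 286 in Ly6Chi and at 64, 105, 140 and 117 in Ly6Clo libraries. It was 2.3-fold lower and did not overlap here (log2 fold change -1.20, SE 0.25, adjusted p = 0.00485; -1.28 and -1.13 within the series). *Abcg1* was at 1349, 1813, 1572 and 1858 in Ly6Chi and at 3503, 3773, 2358 and 2756 in Ly6Clo libraries. It was higher in each Ly6Clo library (log2 fold change 0.90, SE 0.16, adjusted p = 0.00193), with 1.22 in the first series and 0.58 in the second. *Abca1* was at 192, 269, 172 and 221 in Ly6Chi and at 770, 435, 277 and 459 in Ly6Clo libraries. The lowest Ly6Clo library was just above the highest Ly6Chi library, and the log2 fold change was 1.11 (SE 0.27, adjusted p = 0.0115; 1.34 and 0.87 within the series). *Elovl5* was at 1242, 1345, 1677 and 1732 in Ly6Chi and at 2579, 2928, 2543 and 2603 in Ly6Clo libraries. The groups did not overlap, with a log2 fold change of 0.84 (SE 0.12, adjusted p = 0.000496). It was 1.09 in the first series and 0.59 in the second. With replicates 3 and 4 alone the calls of *Elovl5* and *Abcg1* were lost, and without the filter on low values that of *Abca1* was lost. *Mvk*, at 49.75 ± 7.89 against 102.0 ± 42.0 (log2 fold change -0.93), had an adjusted p of 0.0532, and 0.0199 with the replicate block. *Fads1* was not called (-0.25), and the 18 cholesterol enzymes had a median log2 fold change of -0.17 with 2 called.

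**Figure D3:**
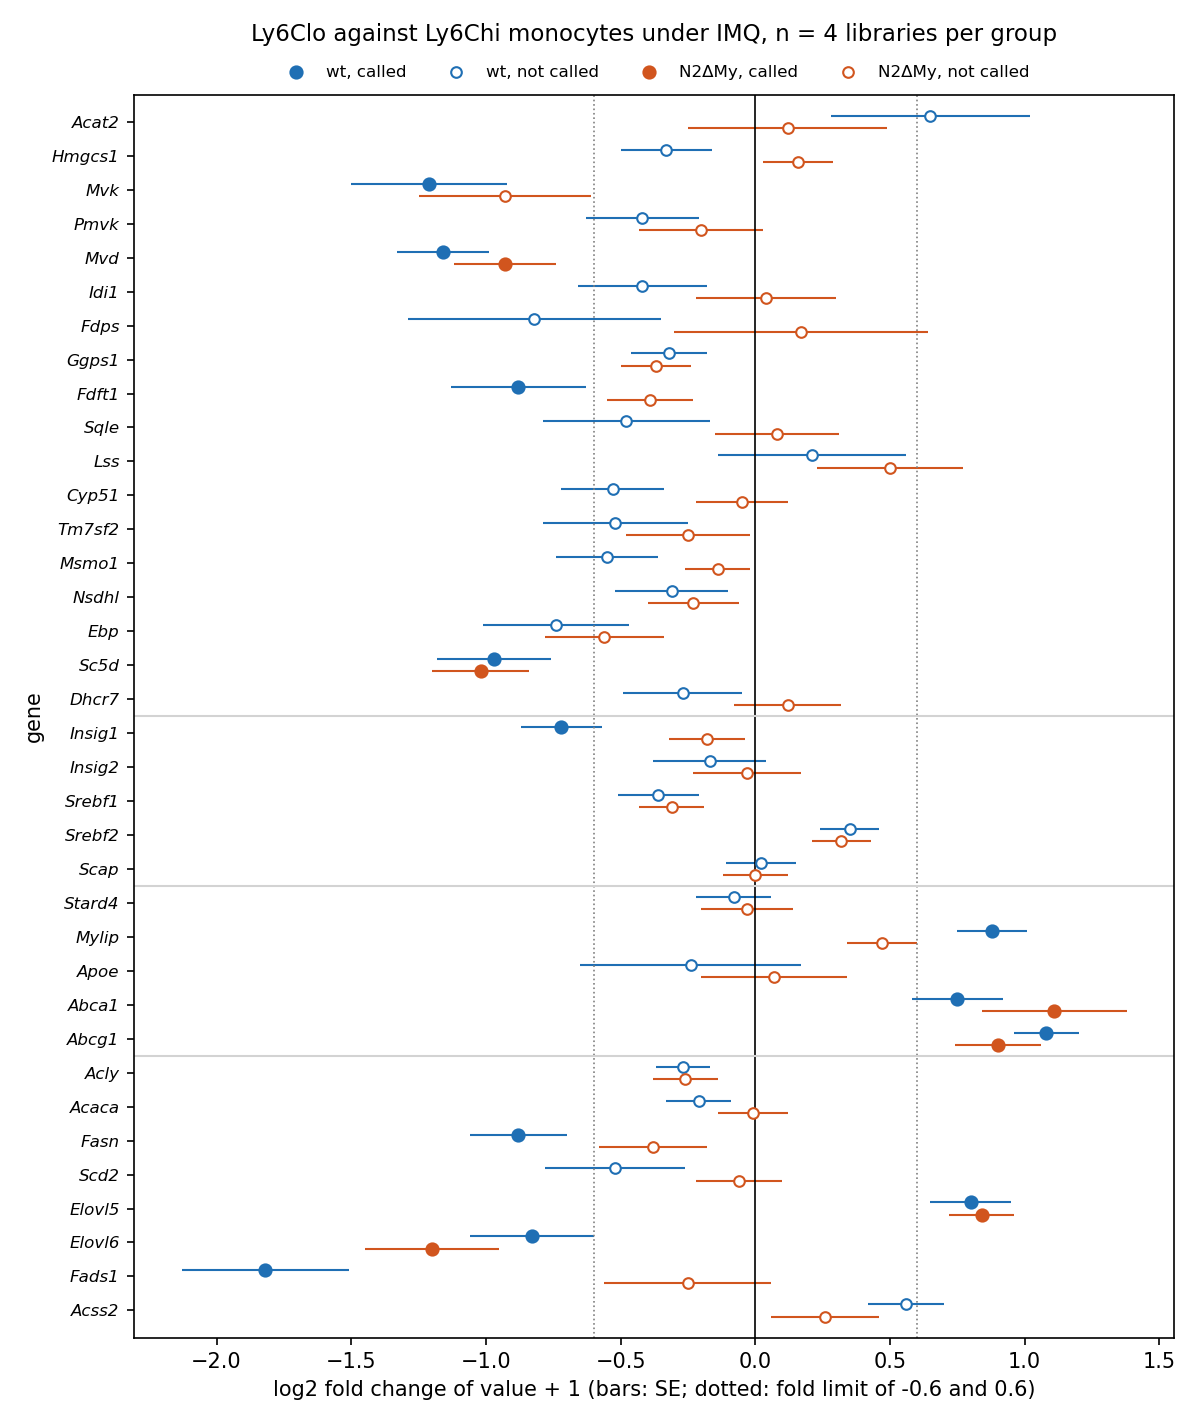
Log2 fold change (Ly6Clo minus Ly6Chi, x axis) of each tested gene in wt and *N2ΔMy* mice after IMQ, with SE bars and filled symbols for called genes; the lines at 0.6 on either side of 0 are the fold limit. *Abcg1*, *Abca1* and *Elovl5* lie on the right and *Mvd*, *Sc5d* and *Elovl6* on the left in both genotypes, and *Fads1* is at -1.82 in wt and -0.25 in *N2ΔMy* mice.

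Other pathway genes were called between the subsets too. The nuclear receptor gene *Pparg* was higher in Ly6Clo cells by 4.23 on the log2 scale in wt and 3.67 in *N2ΔMy* mice, *Nr1h3* by 2.32 and 2.79, the uptake receptor *Cd36* by 3.96 and 4.38 and the fatty acid binding protein gene *Fabp4* by 4.57 and 5.05. *Msr1* was lower (-3.63 and -1.90), as were the lysosomal sterol carrier *Npc2* (-1.82 and -1.42) and, among 13 beta-oxidation genes, *Hadh* (-1.41 and -1.40) and *Acadm* (-0.74 and -0.63). *Rxra*, the partner of these receptors, was lower in both genotypes (-1.16 in wt and -0.95 in *N2ΔMy* mice). *Cyp27a1* was lower in wt mice (-1.34) and at -1.09 in *N2ΔMy* mice, with an adjusted p of 0.0509 there that was 0.000594 with the replicate block. In *N2ΔMy* mice *Lpin1* was higher (416.8 ± 89.5 against 206.0 ± 89.1), and the hormone-sensitive lipase gene *Lipe* was higher in wt mice (0.91) and in *N2ΔMy* mice (0.63). In wt mice 1 gene was higher and 3 lower of the 12 sterol genes, and 2 and 2 of the 9 receptor genes. The storage genes had 5 higher and 2 lower of 15, and the beta-oxidation genes 0 and 2 of 13. In *N2ΔMy* mice these counts were 1 and 2, 2 and 2, 5 and 1, and 0 and 2. Of all genes tested 24.6% were called in wt and 17.4% in *N2ΔMy* mice. The neutrophil list summed to 17 to 290 in wt Ly6Clo and 94 to 262 in *N2ΔMy* Ly6Clo libraries, below the Ly6Chi libraries after IMQ. The cell cycle list summed to 2493 to 2806 and 2460 to 3574, with 1 of 13 tested genes higher and 4 lower in wt and 3 lower in *N2ΔMy* mice. Of the 7 tested macrophage genes 1 was higher and 2 were lower in wt Ly6Clo cells, and 6 were higher in *N2ΔMy* Ly6Clo cells, where the list summed to 4786 to 5802 against 1515 to 2720 in Ly6Chi cells. In wt mice the macrophage sums were 504 to 819 in Ly6Clo and 860 to 1625 in Ly6Chi cells, with *Siglec1* (-5.70) and *Maf* (-0.82) called lower and *C1qc* (2.04) higher, while 4 of the 7 differences were positive with a median log2 fold change of 0.94. Wt Ly6Clo cells had 1 of 4 tested dendritic cell genes higher and 1 lower, and *N2ΔMy* Ly6Clo cells had 3 higher, with sums of 83 to 531 and 211 to 1514. The part of these lists in the lipid gene differences was not tested.

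The third question was whether the conditional deletion of *Notch2* went with a difference in these genes. In Ly6Clo cells after IMQ 2 of 36 genes (5.56%) were called, *Fads1* higher and *Acss2* lower in *N2ΔMy* mice, against 4.78% of all genes tested (3.12% higher and 1.67% lower). The median log2 fold change was 0.21 over the 36 genes and -0.00 over all genes tested, and 30 of the 36 differences were positive. Of the 18 tested cholesterol enzymes 17 had positive differences with a median of 0.26, and none was called. The summed normalized counts of the cholesterol list were 2569 to 3052 in wt and 3212 to 3898 in *N2ΔMy* Ly6Clo libraries.

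*Fads1* was at 19, 28, 31 and 15 in wt and at 58, 50, 128 and 58 in *N2ΔMy* Ly6Clo libraries. The groups did not overlap, and *N2ΔMy* replicate 3 was far above the other 3. The level was 2.96-fold higher (log2 fold change 1.57, SE 0.38, adjusted p = 0.0346; 1.19 and 1.95 within the series), and it was 1.27 with an adjusted p of 0.0819 without that library. The call was lost in 7 of the 8 fits that left out 1 library, each other than that without wt replicate 3, with log2 fold changes from 1.27 to 1.71. *Acss2* was at 376, 331, 302 and 299 in wt and at 198, 143, 235 and 218 in *N2ΔMy* libraries. Each *N2ΔMy* library was below each wt library, a 1.66-fold difference (log2 fold change -0.74, SE 0.18, adjusted p = 0.0337; -1.06 and -0.41 within the series). This call was lost in 7 of the 8 such fits too, each other than that without *N2ΔMy* replicate 3. In these 7 limma fits the log2 fold change ran from -0.59 to -0.79 and the adjusted p from 0.0503 to 0.11. The exons of *Acss2* overlap those of *Gss* on the opposite strand over 3.89% of the gene model. *Apoe* was at 3275, 2215, 4806 and 9649 in wt and at 13409, 6583, 10288 and 9033 in *N2ΔMy* libraries. The groups overlapped through wt replicate 4, and *Apoe* was not called (log2 fold change 1.15, SE 0.38, adjusted p = 0.12), whereas with the replicate block its adjusted p was 0.00975.

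In Ly6Chi cells none of the 36 genes was called between genotypes by limma, against 0.0267% of all genes tested after IMQ and 0.0178% after Sham. In each comparison 2 of the 36 had an unadjusted p under 0.05, against 679 of all 11230 genes after IMQ and 585 after Sham. *Acss2* had lower values in *N2ΔMy* Ly6Chi cells too. It was at 213, 205, 257 and 208 in wt and at 170, 155, 197 and 134 in *N2ΔMy* libraries after IMQ, and at 185, 177, 261 and 219 and at 159, 148, 131 and 175 after Sham. In both settings the libraries of the genotypes did not overlap, with log2 fold changes of -0.43 (SE 0.16, adjusted p = 0.67) and -0.45 (SE 0.17, adjusted p = 0.921) and an exact two-sided permutation p of 0.0286 each, the smallest that 4 against 4 libraries allow. *Apoe* after IMQ, at 5388 ± 2250 in wt and 9510 ± 3240 in *N2ΔMy* cells, was not called (log2 fold change 0.84, SE 0.32, adjusted p = 0.734), but was with the replicate block (adjusted p = 0.00252). After Sham its log2 fold change was 0.19. The Ly6Clo marker list was lower in the same *N2ΔMy* Ly6Chi libraries, with sums of 22596 to 33336 against 32212 to 48689 in wt libraries after IMQ, and of 21609 to 27055 against 31789 to 35027 after Sham, where the groups did not overlap. All 7 tested genes of the list had negative differences in both settings, with a median log2 fold change of -0.97 after IMQ and -0.66 after Sham. None was called, but *Nr4a1* and *Ace* were after IMQ with the replicate block. The part of this list in the *Acss2* values was not tested.

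**Figure D4:**
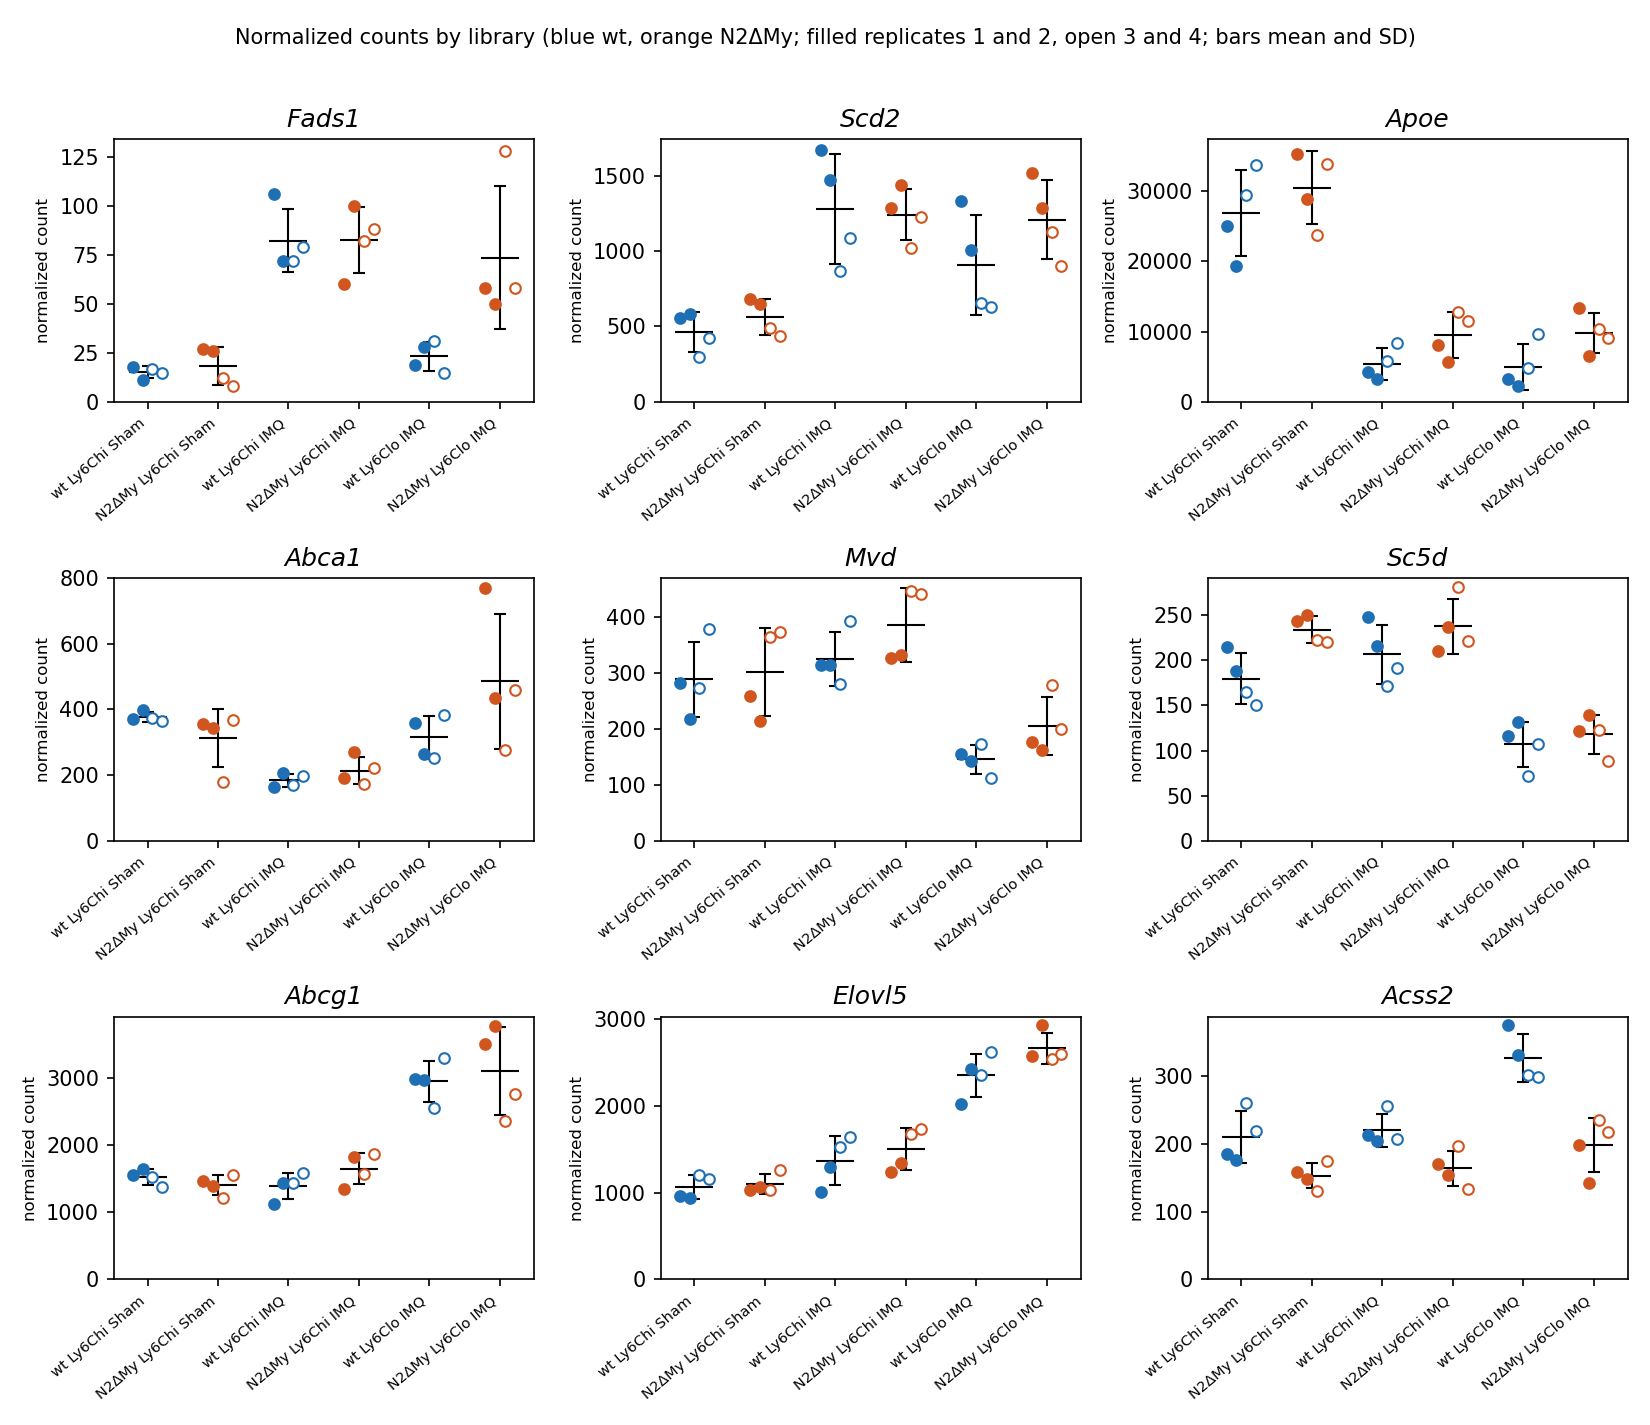
Normalized counts (y axes, linear from 0) of genes called in at least 1 comparison, by group along the x axis, with 1 point per library (blue wt, orange *N2ΔMy*, filled for replicates 1 and 2, open for 3 and 4) and bars for the group mean and SD. *Fads1* is at 31 or below in both Sham groups and in wt Ly6Clo cells and between 50 and 128 in the other 3 groups, *Apoe* is at 19299 or more in the Sham groups and at 13409 or less elsewhere, and *Acss2* is lower in *N2ΔMy* than in wt libraries in each of the 3 settings.

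The interaction of genotype and subset called none of the 36 genes in limma, against 1.03% of all genes tested. It had an unadjusted p under 0.05 for 4 of the 36 genes and for 936 of all 11230 genes. For *Fads1*, with a log2 fold change of -0.00 between genotypes in Ly6Chi and 1.57 in Ly6Clo cells, the interaction was 1.57 (SE 0.44, adjusted p = 0.123, and 0.0529 with the replicate block). For *Acss2* it was -0.30 and for *Apoe* 0.31. These comparisons share libraries, since the Ly6Chi libraries after IMQ also enter the comparisons with Sham and with Ly6Clo cells. Among the other pathway genes, *N2ΔMy* Ly6Clo cells had more *Lpl* (2538 ± 301 against 196.5 ± 44.7, log2 fold change 3.71), *Msr1* (2.15), *Cd36* (1.83) and *Npc2* (0.66) and less *Fabp4* (-1.14), while no receptor or beta-oxidation gene was called. With the replicate block 4 rather than 2 of the 15 storage genes were called in this comparison, adding *Acsl3* and *Fabp5*. Of the 12 sterol genes 4 rather than 3 were called, and of all 11230 genes tested 939 rather than 537. In Ly6Chi cells after IMQ *Cd36* and *Lpl* were called higher with the block (adjusted p = 0.00481 and 0.0018), against 0 genes of these 4 lists without it. Over all genes tested 54 were called there with the block, against 3. *Lpl* and *Msr1* also passed the interaction with subset, at 2.44 (adjusted p = 0.00034) and 1.74 (adjusted p = 0.00218).

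Macrophage markers differed between the same Ly6Clo libraries. All 7 tested genes of the macrophage list were higher in *N2ΔMy* cells, and the list summed to 4786 to 5802 against 504 to 819 in wt cells. The Ly6Chi list summed to 7117 to 10009 against 524 to 1892, with *Ccr2*, *Vcan* and *F13a1* higher, and 5 of 7 tested Ly6Clo markers were lower. The 4 tested dendritic cell genes had positive differences with a median log2 fold change of 1.29. None was called, while *Flt3* and *Clec9a* were with the replicate block, and that list summed to 211 to 1514 in *N2ΔMy* against 83 to 531 in wt cells. Of 13 tested cell cycle genes 11 had positive differences, with a median of 0.19. None was called, while 2 were with the block, and the sums were 2460 to 3574 against 2493 to 2806. The part of these cell states in the values of *Fads1*, *Acss2* and *Apoe* was not tested.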

How the data were processed

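RNA of sorted monocytes was made into libraries with a stranded total RNA kit of low input and sequenced as 75 bp single reads. Per the labels and methods, the authors trimmed reads with Trim Galore 0.4.4, aligned them with STAR 2.5.3a to GRCm38.p6 in nf-core/rnaseq, counted them on GENCODE M17 genes, divided counts by DESeq2 size factors and rounded them. The deposited values are therefore a score in normalized counts and were given to no count model. The 6 columns of the authors' comparison and mean were left out. The 24 library columns were matched to samples by title. Genes reaching 50 in at least 1 library (11230) were tested on log2(value + 1) in limma 3.58.1 (R 4.3.3) with a trended prior and Benjamini-Hochberg adjustment over all genes tested, for 7 comparisons of 2 groups, 2 interactions and an F-test over 6 groups. For single genes all 70 splits of 8 libraries gave exact two-sided permutation tests. Libraries with the same replicate number deviated together (r = 0.16 to 0.619 between the deviations from the group means), and less within each library series (r = -0.116 to 0.263), so the number was also fitted as a block. Values in every library were given for called genes, at most the 6 with the largest change in a comparison, and other pathway genes were named where called, at most 3 per list; *Rxra* and *Cyp27a1* between subsets, *Lipe* in *N2ΔMy* mice and genes called with the block alone were named after their values were seen. The code was tested on simulated data. The 40 genes, gene lists and markers were chosen with earlier results of these data known. Alternatives were scaling, filter, trend, block, library series, pseudocount, libraries in the fit and leaving out libraries.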

Additional observations from a re-analysis of the deposited data

Results flagged for a closer look

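In 8 of 216 groups of 4 libraries (3.7%) of the 36 tested genes, 1 library stood apart from the other 3 by Dixon's test, and chance gives about 1 in 20 groups. In *N2ΔMy* Ly6Clo cells replicate 3 was high for *Fads1* (128 against 50 to 58 normalized counts) and for *Fasn* (1018 against 564 to 574), and replicate 2 was high for *Elovl5* (2928 against 2543 to 2603). In wt Ly6Chi cells after IMQ replicate 3 was low for *Hmgcs1* (428 against 595 to 610) and high for *Acss2* (257 against 205 to 213). Replicate 3 of wt Ly6Chi cells after Sham was low for *Fasn* (461 against 689 to 712). Replicate 3 of *N2ΔMy* Ly6Chi cells was low for *Abca1* after Sham (180 against 343 to 369) and for *Acat2* after IMQ (23 against 34 to 36).

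Of the other pathway genes, *Lpl* and *Msr1* had differences between genotypes that differed between Ly6Clo and Ly6Chi cells after IMQ, by 2.44 and 1.74 on the log2 scale in the interaction test of limma. *Lpl* was at 196.5 ± 44.7 in wt and 2538 ± 301 in *N2ΔMy* Ly6Clo cells and at 580.0 ± 170 and 1382 ± 323 in Ly6Chi cells. *Msr1* was at 73.25 ± 8.85 and 338.8 ± 109 in Ly6Clo cells and at 917.0 ± 80.6 and 1226 ± 186 in Ly6Chi cells.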

How the results depend on the processing

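The 30 calls of a gene in a comparison kept their direction under each alternative run. None was lost with quantile normalization, with 50 normalized counts required in 4 libraries, with the library series as a covariate, with a pseudocount of 10, with values under 1.1 set to 1.1 or with the replicate block. Calls were lost without the filter (7 of 30), with replicates 1 and 2 alone (3), with replicates 3 and 4 alone (13), with equal sums, without the trend and in a fit of all 24 libraries (1 each), and in 24 of 240 fits without 1 library. Called genes between genotypes in Ly6Clo cells were 2, but 1 with equal sums, 1 without the trend, 0 without the filter and 0 with replicates 3 and 4 alone. With replicates 3 and 4 alone 6 genes, not 12, were called between wt Ly6Clo and Ly6Chi cells, and 11, not 18, in the F-test. Over all genes these counts were 2043, not 2760, and 3282, not 4826. With the replicate block 1 gene, *Apoe*, was called between genotypes in Ly6Chi cells after IMQ, and 1 with the library series as a covariate, against 0. Over all genes tested 54 and 29 were called there, against 3. Beyond the values given with the results, the block changed no other call of the 36 genes in the comparisons of 2 groups and called 22 of them in the F-test, where it called 6417 of all 11230 genes against 4826 without it. Among the other pathway genes, the calls it added included *Lpin1* in wt cells, for IMQ against Sham and for Ly6Clo against Ly6Chi. Without 1 library, counts ran from 5 to 7 and 3 to 5 for IMQ against Sham in wt and *N2ΔMy* cells, from 11 to 14 and 6 to 7 for Ly6Clo against Ly6Chi, from 0 to 1 between genotypes in Ly6Clo cells and from 16 to 20 in the F-test, and were 0 in the other comparisons. Of 20 uncalled differences that were followed, 5 were called with the block, 4 with the library series as a covariate, 3 in a fit of all 24 libraries, 6 with replicates 1 and 2 alone and 2 with replicates 3 and 4 alone, besides 9 calls in the fits without 1 library. Of the 20, 3 changed sign, *Tm7sf2* in wt (0.03) and *Fasn* in *N2ΔMy* (0.01) Ly6Clo against Ly6Chi cells with replicates 3 and 4 alone, and *Lss* in *N2ΔMy* cells (-0.09) with replicates 1 and 2 alone. The cause was not tested. Each smaller fit has fewer libraries, and the fit without a filter has more genes. Rounded values and the unknown meaning of the library series limit precision for low genes such as *Fads1*.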

Other observations

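Levels of some of the 40 genes followed the library series. In all 6 groups both libraries of the second series were above both of the first for *Ebp* (means of 582.7 and 353.6 normalized counts) and *Elovl6* (212.9 and 132.5), and below both for *Scd2* (763.7 and 1123). These were 2 of 36 genes above (5.56%) and 1 below (2.78%), against 6.06% and 4.01% of all genes tested.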
